A study of Mus musculus with 8 samples.

Results

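The genes described here are 8 genes of antigen presentation by MHC class II and of the dendritic cell lineage. They are the class II chains H2-Aa, H2-Ab1 and H2-Eb1, the peptide loading factor genes H2-DMa and H2-DMb1, the class II transactivator gene Ciita, and the dendritic lineage genes Tcf4 and Siglech. They were taken by gene symbol from a table of 23131 genes, which held all 8 of them. RNA was sequenced from sorted GMP (granulocyte-macrophage progenitors), the marrow precursors of neutrophils and monocytes, of C57BL/6 mice. The RH2hKO group was 4 mice (replicates 5 to 8) with floxed Rnaseh2b alleles and Vav-Cre, whose recombinase works throughout the blood system and removes a subunit gene of the ribonucleotide-excising enzyme RNase H2. The RH2hWT group was 4 Cre-negative littermates (replicates 1 to 4), which carry the same floxed alleles and no recombinase. Neither a treatment nor an age is given in the labels, and deletion by Vav-Cre is not particular to GMP.

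MHC class II molecules are dimers of an alpha and a beta chain that display peptides to CD4+ T cells. In the endosome the invariant chain Cd74 occupies the groove of a new dimer, and H2-DM, the dimer encoded by H2-DMa and H2-DMb1, exchanges its remnant for peptide, while H2-O inhibits that exchange. Ciita is the transactivator that binds no DNA itself and is recruited to class II promoters by factors on conserved X and Y boxes. Dendritic cells, B cells and macrophages are the main class II cells of marrow and spleen. Tcf4 encodes E2-2, the transcription factor that defines plasmacytoid dendritic cells, and Siglech is a surface lectin of those cells in the mouse.

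The class II genes lie together on chromosome 17 (coordinates on mm10, from the deposited table). H2-DMa spans 34119541 to 34139101, H2-DMb1 34153072 to 34160230, H2-Ab1 34257689 to 34269419, H2-Aa 34282744 to 34287823 and H2-Eb1 34305867 to 34316674. H2-Aa is on the minus strand and the other class II genes named here are on the plus strand. Ciita lies on chromosome 16 from 10480059 to 10528418 and Siglech on chromosome 7 from 55768178 to 55778925, both on the plus strand. All 8 are annotated as protein coding, and their identifiers, starts and ends matched GENCODE M21.

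The promoter windows of H2-Aa, H2-Eb1 and H2-DMb1 are shown because they carry the same pair of short elements, although these genes differed widely in level and in their spread between mice. Windows run from 250 bases before to 50 after the RefSeq gene start (GRCm38.p6) and were found for 5 of the 8 genes. Capitals mark GNAACT (N is any base), letters at the core of the X box, and ATTGG, the reverse of the CCAAT letters of the Y box. The windows are chr17:34287774-34288073 on the minus strand for H2-Aa, chr17:34305617-34305916 on the plus strand for H2-Eb1 and chr17:34152941-34153240 on the plus strand for H2-DMb1.
H2-Aa: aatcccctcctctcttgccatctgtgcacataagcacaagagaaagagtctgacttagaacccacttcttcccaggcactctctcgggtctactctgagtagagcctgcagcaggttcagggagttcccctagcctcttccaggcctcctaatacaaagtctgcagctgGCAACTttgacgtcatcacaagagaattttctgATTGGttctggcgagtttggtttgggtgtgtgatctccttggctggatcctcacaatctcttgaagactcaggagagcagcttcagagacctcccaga
H2-Eb1: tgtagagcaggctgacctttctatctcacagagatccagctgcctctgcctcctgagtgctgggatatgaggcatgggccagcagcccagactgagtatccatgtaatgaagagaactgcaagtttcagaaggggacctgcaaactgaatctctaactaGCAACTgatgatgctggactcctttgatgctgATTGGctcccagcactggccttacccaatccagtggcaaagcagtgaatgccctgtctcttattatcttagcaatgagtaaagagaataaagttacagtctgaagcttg
H2-DMb1: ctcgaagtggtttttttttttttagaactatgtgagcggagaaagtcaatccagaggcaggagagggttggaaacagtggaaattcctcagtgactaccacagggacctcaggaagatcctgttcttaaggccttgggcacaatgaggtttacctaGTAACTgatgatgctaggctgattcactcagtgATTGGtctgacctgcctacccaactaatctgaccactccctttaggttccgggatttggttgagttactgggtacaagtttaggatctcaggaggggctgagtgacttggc
The elements were 27 bases apart in H2-Aa, 26 in H2-Eb1 and 27 in H2-DMb1. The first began 81, 91 and 94 bases before the start of H2-Aa, H2-Eb1 and H2-DMb1. On both strands, GNAACT was in 42.8% and ATTGG in 37.4% of all 32851 promoter windows of that length, and the pair in this order, 24 to 30 bases apart, was in 124 of them (0.377%). The letters and the gap were chosen after these 3 windows had been read, so that share is a description. H2-Eb2, a class II beta chain gene not used to choose them, also held the pair, 26 bases apart. The windows of H2-DMa, Siglech, H2-DMb2, H2-Oa and H2-Ob did not hold the pair.

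Depth was 34976865 to 38917550 reads assigned to genes in RH2hKO libraries and 28352720 to 45655518 in RH2hWT libraries. Rnaseh2b, the deleted gene, had a normalised count of 75.9 to 127.5 in RH2hKO and 1207.3 to 2470 in RH2hWT libraries, so no library went against its label. RH2hKO replicate 8 stood apart on the second principal component (-49.69, 17.7% of the variance), with RH2hWT replicate 1 at the other end (34.63) and the remaining libraries between -13.96 and 10.95. Results on the class II genes are given with and without it. GMP markers were high in all libraries: Mpo, the myeloperoxidase gene, averaged 739426 ± 40702 in RH2hKO and 806205 ± 35330 in RH2hWT (SD, n = 4 each).

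Levels per kilobase of gene length, which compare genes only roughly, ran in the order H2-DMb1, H2-DMa, H2-Ab1, Tcf4, H2-Aa, H2-Eb1, Siglech and Ciita. The loading genes were highest. H2-DMb1 ranged from 633 to 793 normalised counts per kb in RH2hKO and from 592 to 715 in RH2hWT libraries, and H2-DMa from 680 to 740 and from 487 to 680, so these neighbours overlapped in both groups. H2-Ab1 followed at 207 to 431 per kb in RH2hKO and 187 to 240 in RH2hWT, and Tcf4 at 68.5 to 80.6 and 56.8 to 71.7. Each of these was apart from the next in every library. H2-Aa (1.29 to 42.1 per kb in RH2hKO, 5.37 to 23.7 in RH2hWT) overlapped H2-Eb1 (0 to 34.2 and 1.90 to 10.3). Siglech and Ciita were at most 1.06 and 0.388 per kb in any library. The length is that of all annotated exons of a gene together, which for Tcf4 is 27382 bases from 62 transcripts. It is not the length of the transcripts expressed here, so a gene with many transcripts, such as Tcf4, can be placed too low in this order.

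**Figure D1:**
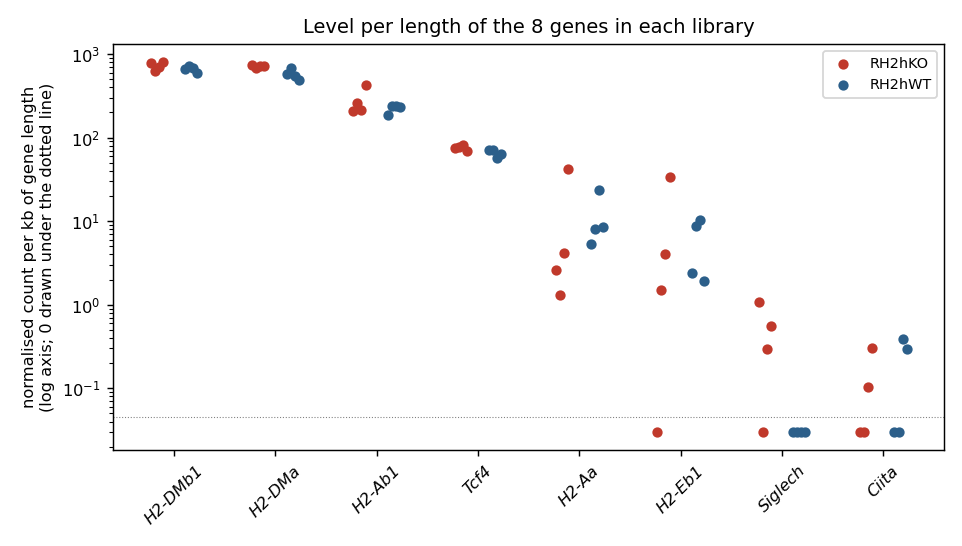
Normalised count per kilobase of gene length (log axis) for the 8 genes, with RH2hKO libraries (red) left of RH2hWT libraries (blue) and libraries at 0 under the dotted line. The loading genes stand at 487 or more in every library, H2-Aa and H2-Eb1 spread widely, and Siglech and Ciita are near 0.

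The 3 class II chains did not share a level, and in each of them RH2hKO replicate 8 was the highest of the 8 libraries. H2-Aa, the alpha chain of the I-A molecule, had 9.9, 4.9, 15.8 and 159.8 normalised counts in RH2hKO replicates 5, 6, 7 and 8, against 20.4, 30.2, 89.9 and 32.4 in RH2hWT replicates 1, 2, 3 and 4. RH2hKO replicates 5 to 7 lay below every control and RH2hKO replicate 8 above every control, so the groups overlapped. The means were 47.6 ± 74.9 in RH2hKO and 43.2 ± 31.6 in RH2hWT (SD, n = 4 each), while the log2 fold change, fitted on log values, was -0.89 ± 0.81 (SE; limma adjusted p = 0.694). Without RH2hKO replicate 8 the log2 fold change of H2-Aa was -1.88 ± 0.55 (95% interval -3.05 to -0.70; limma adjusted p = 0.0763). That pattern, RH2hKO replicate 8 highest and the other RH2hKO libraries the 3 lowest, was shown by 231 of 16688 genes (1.38%).

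H2-Eb1 encodes the beta chain of the I-E molecule, whose alpha chain C57BL/6 mice do not make. It had 0, 2.9, 7.9 and 66.4 normalised counts in RH2hKO replicates 5 to 8 in order, against 4.7, 17, 20 and 3.7 in RH2hWT replicates 1 to 4. These are 80 reads in the RH2hKO libraries together and 44 in the RH2hWT libraries. The RH2hKO libraries again lay on both sides of the controls, and the log2 fold change was -0.53 ± 1.05 with all libraries and -1.62 ± 0.92 without RH2hKO replicate 8 (limma adjusted p = 0.885 and 0.362).

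H2-Ab1, the beta chain that pairs with H2-Aa, had 530.3, 659.9, 548.2 and 1105.8 normalised counts in RH2hKO replicates 5 to 8, against 481.3, 611.1, 615.9 and 602.3 in RH2hWT replicates 1 to 4. Replicates 5 to 7 lay among or near the controls, and replicate 8 at 1.91 times the RH2hWT mean. The log2 fold change was 0.24 ± 0.19 (limma adjusted p = 0.645), and without RH2hKO replicate 8 it was 0.0050 ± 0.13, with a 95% interval from -0.26 to 0.27. Per kilobase, H2-Ab1 stood 79.2, 199, 51.3 and 10.2 times above H2-Aa in RH2hKO replicates 5 to 8, and 34.9, 29.9, 10.1 and 27.5 times above it in RH2hWT replicates 1 to 4. The chains of 1 dimer were thus far from equal at the RNA level in every library, and nearest to it in RH2hKO replicate 8 and RH2hWT replicate 3. The size of these ratios depends on the annotated exon lengths. None of the 2659 stretches of 50 bases in the annotated H2-Ab1 transcripts is found in a transcript of another gene, and no annotated gene overlaps H2-Ab1.

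**Figure D2:**
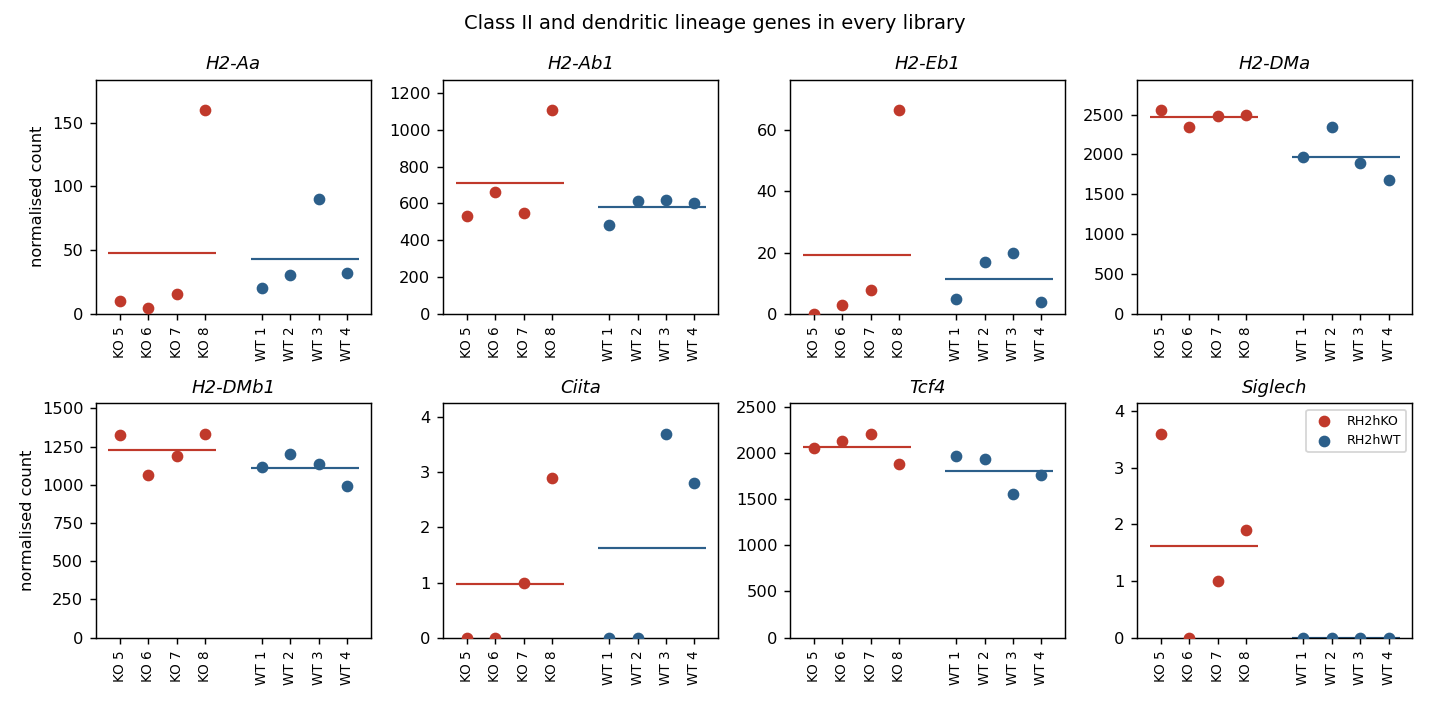
Normalised counts (linear axis from 0, 1 panel per gene) in RH2hKO replicates 5 to 8 (red) and RH2hWT replicates 1 to 4 (blue), with the group mean as a line. RH2hKO 8 is the highest library for H2-Aa, H2-Ab1 and H2-Eb1, while H2-DMa and Tcf4 differ little between the mice of a group.

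The invariant chain Cd74, on chromosome 18 and not among the 8 genes, followed H2-Aa. It had 6.3, 7.8, 0 and 100.1 normalised counts in RH2hKO replicates 5 to 8, against 12.5, 20.8, 70 and 43.5 in RH2hWT replicates 1 to 4. As with H2-Aa, RH2hKO replicates 5 to 7 lay below every control and replicate 8 above every control. Without RH2hKO replicate 8, 8.59% of the genes tested had all RH2hKO libraries below all RH2hWT libraries. The log2 fold change of Cd74 was -1.79 ± 1.04 with all libraries (limma adjusted p = 0.495) and -2.95 ± 0.80 without RH2hKO replicate 8 (limma adjusted p = 0.0585). Without RH2hKO replicate 7, the library at 0, it was -0.74 (limma adjusted p = 0.840), and with all libraries edgeR and DESeq2 gave -0.34 and -0.36 (adjusted p = 0.925 and 0.958). Cd74 was called lower with RH2hWT replicate 1 and RH2hKO replicate 8, the ends of the second principal component, both left out (-3.36, limma adjusted p = 0.0224). DESeq2 without RH2hKO replicate 8 also called it lower (-2.95, adjusted p = 0.00305), but edgeR without that library did not (-2.91, adjusted p = 0.0664). The edgeR and DESeq2 fits without that library were chosen after seeing the data. Among controls, replicate 3 was the highest for H2-Aa, H2-Eb1, H2-Ab1 and Cd74.

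**Figure D3:**
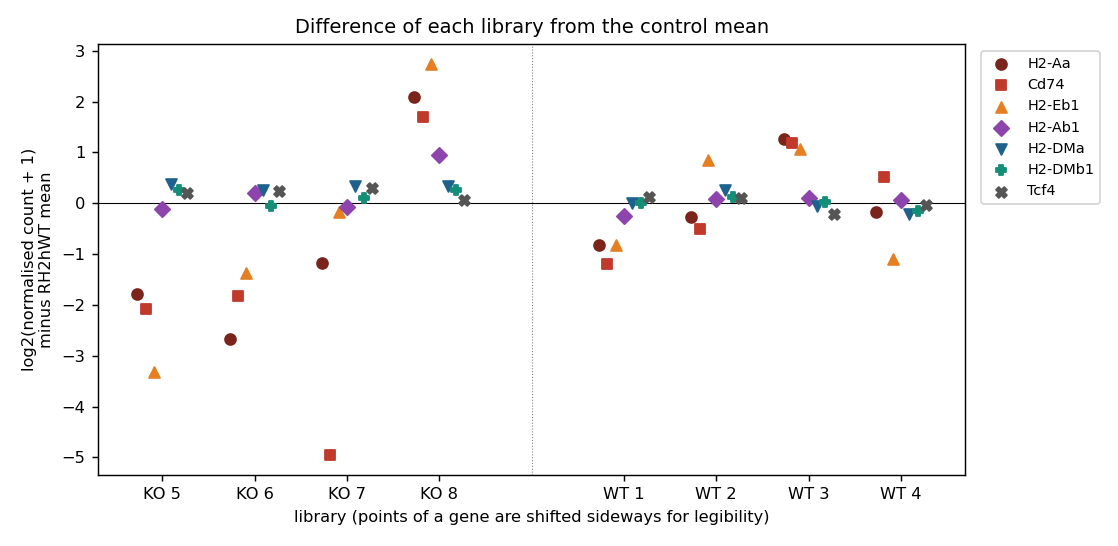
Difference of log2(normalised count + 1) from the RH2hWT mean for 7 genes, with RH2hKO libraries on the left and RH2hWT libraries on the right. H2-Aa, Cd74 and H2-Eb1 lie below 0 in RH2hKO 5 to 7 and above 1.5 in RH2hKO 8, whereas H2-DMa, H2-DMb1 and Tcf4 stay within 0.4 of the control mean.

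The loading genes were evenly expressed. H2-DMa had 2553.2, 2344.7, 2478.5 and 2492.6 normalised counts in RH2hKO replicates 5 to 8, against 1966.6, 2345.4, 1895.1 and 1679.8 in RH2hWT replicates 1 to 4. The RH2hKO libraries were the higher ones, and the groups overlapped by less than 1 normalised count, through RH2hWT replicate 2. The means were 2467 ± 87.9 and 1972 ± 277 (SD, n = 4 each), a log2 fold change of 0.33 ± 0.09 (95% interval 0.13 to 0.54), and the gene did not pass the test over all genes (limma adjusted p = 0.119). H2-DMa passed when RH2hWT replicate 2 was left out (log2 fold change 0.42, limma adjusted p = 0.0434) and by DESeq2 on the recovered reads (0.32, adjusted p = 0.0489). Its adjusted p over the other alternatives run was 0.0438 to 0.389. Brd2, a gene on the opposite strand, covers 10.4% of the exon bases of H2-DMa. Brd2 averaged 11713 ± 1455 normalised counts in RH2hKO and 10982 ± 482 in RH2hWT. Whether reads were counted by strand is not stated in the labels, so reads of Brd2 in H2-DMa cannot be told apart and its level is uncertain.

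H2-DMb1 had 1324.3, 1064.8, 1189.0 and 1332.9 normalised counts in RH2hKO replicates 5 to 8, against 1117.7, 1202.4, 1134.3 and 995.1 in RH2hWT replicates 1 to 4. The groups overlapped, and the log2 fold change was 0.14 ± 0.10 (95% interval -0.07 to 0.35; limma adjusted p = 0.589). Its neighbour H2-DMb2, a second beta chain gene of H2-DM, averaged 270.4 ± 57.8 in RH2hKO and 251 ± 23.6 in RH2hWT. Of the 50-base stretches in H2-DMb1 transcripts, 22.7% also occur in H2-DMb2, so the split between these copies is uncertain. H2-Ob, a chain of the inhibitor H2-O, had a log2 fold change of 0.58 ± 0.19 and H2-Oa, its partner, one of 0.08 ± 0.23 (limma adjusted p = 0.202 and 0.923).

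Ciita was at the limit of detection, with 4 reads in the RH2hKO libraries together (95% Poisson interval 1.09 to 10.24) and 6 in the RH2hWT libraries (2.20 to 13.06). It had 0, 0, 1.0 and 2.9 normalised counts in RH2hKO replicates 5 to 8, against 0, 0, 3.7 and 2.8 in RH2hWT replicates 1 to 4. The few reads lay in RH2hKO replicates 7 and 8 and RH2hWT replicates 3 and 4. RH2hKO replicate 8, RH2hWT replicate 3 and RH2hWT replicate 4 had 3 reads each and RH2hKO replicate 7 had 1. Dexi, on the opposite strand, covers 3.45% of the exon bases of Ciita. No difference between groups was detectable at this depth (exact permutation test of the mean, two-sided p = 0.8286, adjusted over 2 genes 0.8286, n = 4 each). The exact test cannot give a p below 0.0286 here.

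**Figure D4:**
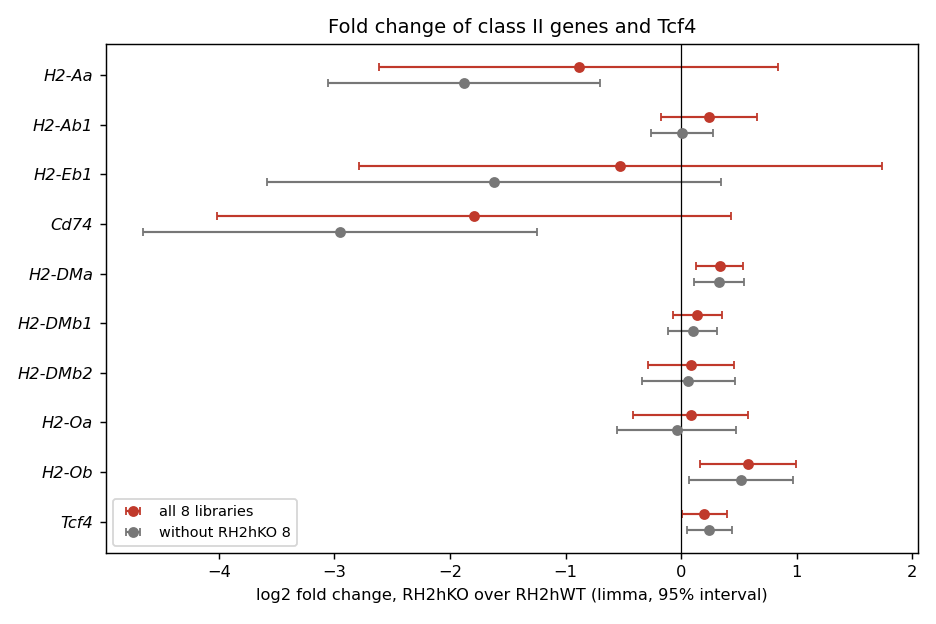
Log2 fold change of RH2hKO over RH2hWT with its 95% interval from limma, with all 8 libraries (red) and without RH2hKO 8 (grey). The intervals of H2-Aa, H2-Eb1 and Cd74 are wide and move down without RH2hKO 8, while those of H2-DMa, H2-DMb1 and Tcf4 are narrow and hardly move.

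Tcf4, the plasmacytoid dendritic cell regulator, lies on chromosome 18 from 69343356 to 69689079 on the plus strand. It had 2052.7, 2127.6, 2206.4 and 1876.7 normalised counts in RH2hKO replicates 5 to 8, against 1964.2, 1930.7, 1556.6 and 1763.2 in RH2hWT replicates 1 to 4. The groups overlapped through RH2hKO replicate 8, the lowest of its group, and the remaining RH2hKO libraries lay above all controls, as did those of 7.57% of all genes. The means were 2066 ± 141 and 1804 ± 187 (SD, n = 4 each), a log2 fold change of 0.20 ± 0.09 (limma adjusted p = 0.366), and 0.24 ± 0.09 without RH2hKO replicate 8 (limma adjusted p = 0.157). In Tcf4, unlike the class II chains, RH2hKO replicate 8 was thus not the high library.

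Siglech was near 0 in both groups. It had 3.6, 0, 1.0 and 1.9 normalised counts in RH2hKO replicates 5 to 8 and 0 in each RH2hWT library. These were 7 reads in 3 RH2hKO libraries (95% Poisson interval 2.81 to 14.42) and 0 in the RH2hWT libraries, where a count of 0 allows up to 3 reads over the group. That floor lies within the interval of the RH2hKO reads, so no difference was detectable at this depth. The exact permutation test of the mean gave a two-sided p of 0.143 (adjusted over 2 genes 0.286, n = 4 each). At its smallest possible p of 0.0286, 1 of the 2 genes alone could not pass 0.05 after adjustment, so this test says nothing on whether the groups are alike.

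Over all 16688 genes with a mean of at least 10, limma with Benjamini-Hochberg adjustment called 234 (1.40%), of which 199 (1.19%) were higher and 35 (0.21%) lower in RH2hKO. Of the 8 genes, 6 passed the filter on low values and none was called. At an unadjusted p below 0.05 there were 2, H2-DMa and Tcf4, against 2199 of the 16688 genes. The edgeR quasi-likelihood test called 0 of the 6 (1.39% of all genes) and DESeq2 called 1, H2-DMa (3.32% of all genes). DESeq2 gave no p for H2-Aa, so it did not test that gene. Without RH2hWT replicate 2, limma called 1 of the 6, H2-DMa, and 0.929% of all genes. Without RH2hKO replicate 8, limma called 0 of the 6, with 3 at an unadjusted p below 0.05, while 3.41% of all genes were called. With RH2hWT replicate 1 also left out, 8.66% of all genes were called, and H2-Aa (log2 fold change -2.15, limma adjusted p = 0.0306) was the 1 of the 6 that fell. That fit leaves out the libraries at both ends of the second principal component of these same data, 1 from each group. DESeq2 without RH2hKO replicate 8, a fit chosen after seeing the data, called H2-Aa lower and H2-DMa higher (log2 fold change -2.07 and 0.32, adjusted p = 0.0126 and 0.0438) and 6.76% of all genes. It gave H2-Eb1 no adjusted p. The edgeR test without that library, also chosen after seeing the data, called 0 of the 6 and 554 of the 16688 genes. Its adjusted p was 0.0836 for H2-Aa and 0.0962 for H2-DMa. The median log2 fold change of the 6 genes was 0.17 with all libraries, beside -0.01 over all genes tested, and 0.05 without RH2hKO replicate 8.

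Among the other genes of the pathway limma with all libraries called none. The list of loading factors and the invariant chain had 0 of 10 members called by limma (2 at an unadjusted p below 0.05, 0 called by edgeR, and 1, H2-DMa, by DESeq2), with a median log2 fold change of 0.11. Its most abundant member after H2-DMa was Ctss, the protease cathepsin S that trims the invariant chain, at 1850 ± 270 in RH2hKO and 1544 ± 205 in RH2hWT. The factors that bind the X and Y boxes, with the ligases that turn class II over, had 0 of 9 called by limma (1 at an unadjusted p below 0.05, 0 by edgeR and 0 by DESeq2). Their median log2 fold change was -0.09. Nfya, a subunit of the Y box factor, averaged 6103 ± 613 and 6186 ± 468, and Creb1, which binds the X2 part of the X box, 3947 ± 166 and 4530 ± 288, in RH2hKO and RH2hWT in that order. The factors of these boxes were thus abundant where Ciita was near 0.

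Interferon gamma is the classical inducer of Ciita, and 0 of 7 genes of its signalling list were called by limma (2 at an unadjusted p below 0.05, 0 by edgeR and 0 by DESeq2). Ifngr1, a receptor subunit, averaged 13643 ± 2017 in RH2hKO and 15480 ± 1582 in RH2hWT, and Jak1, its kinase, 5733 ± 209 and 5714 ± 167.

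In the plasmacytoid dendritic cell list 1 of 16 tested members rose, Bst2, and in the conventional dendritic cell list 1 of 14, Flt3, with none lower (limma). DESeq2 called Bst2 and Irf7 higher and Atp1b1 lower in the plasmacytoid list, and limma without RH2hKO replicate 8 called Bst2 and Ptprs higher and Lair1 lower. Flt3 was the 1 conventional gene called in both of these fits. Over all genes, limma called 1.40% with all libraries and 3.41% without RH2hKO replicate 8, and DESeq2 called 3.32%. Bst2, which interferon also induces, averaged 3539 ± 551 in RH2hKO and 2315 ± 233 in RH2hWT (1.52-fold, limma adjusted p = 0.00982). Flt3, the receptor of dendritic cell and early progenitors, averaged 880 ± 130 and 423 ± 126 (2.14-fold, limma adjusted p = 0.0100). The list medians were 0.05 and 0.09 (log2), beside -0.01 over all genes. Both calls were lost with no intensity trend (limma adjusted p = 0.130 for Bst2 and 0.136 for Flt3), and that of Flt3 without RH2hKO replicate 7 (0.0504). The markers of mature cells were not all at the same level. In RH2hKO libraries the plasmacytoid genes Ly6d, Ccr9, Spib and Pacsin1 were at 0 to 8.7 normalised counts, and in RH2hWT libraries at 0 to 11.2. The conventional dendritic cell genes Zbtb46, Batf3 and Xcr1 were at 0 to 9.0 and 0 to 8.3. Clec9a, a receptor of conventional dendritic cells and their precursors, was detected in every library, at 31.5, 1.0, 26.6 and 41.4 in RH2hKO replicates 5 to 8 and 7.4 to 29.3 in RH2hWT. Clec9a was thus highest in RH2hKO replicate 8, as the class II chains were, but RH2hKO replicate 5 also lay above every control, unlike in H2-Aa. RH2hKO replicate 8 was the highest library for 4 of the 14 conventional genes tested and the lowest for 2. For the 16 plasmacytoid genes these counts were 4 and 3. Over all genes the shares were 15.0% and 16.5%. Itgax, the CD11c gene, was at 16.4 to 36 in RH2hKO and 23.2 to 45.3 in RH2hWT, with RH2hKO replicate 8 lowest.

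RH2hKO replicate 8 was the highest of the 8 libraries for 15.0% of all genes tested, and for 3 of 3 class II chains and 6 of 10 loading and invariant chain genes. It was the lowest for 16.5% of all genes, and for 5 of 9 genes of the class II transcription factor list. Other cell type markers moved in the same library. Beside the list counts that follow, limma called 1.40% of all genes with all libraries and 3.41% without RH2hKO replicate 8. With RH2hWT replicate 1 also left out, limma called 8.66%. With all libraries, edgeR called 1.39% and DESeq2 3.32%, and 2199 of the 16688 genes had a limma unadjusted p below 0.05. The summed eosinophil, mast cell and basophil markers were 36181 in RH2hKO replicate 8 against 8720 to 15204 in the other RH2hKO libraries and 25210 to 38968 in RH2hWT, and 3 of 11 of them fell with all libraries (Ear1, Gzmb and Ear2) and 10 of 11 without that library. The summed erythroid and megakaryocyte markers were 2451 against 1041 to 1430 in the other RH2hKO libraries and 1105 to 1420 in RH2hWT, and 1 of 6 rose, Hbb-bs. Summed monocyte and macrophage markers were 134956 in RH2hKO replicate 8, within the 121407 to 153256 of the other RH2hKO libraries and below the 136665 to 148752 of RH2hWT, and 1 of 13 rose, Ccr2. Without RH2hKO replicate 8, Ccr2, Cx3cr1 and Cd14 rose and Vcam1 fell. The calls of Ccr2, Ear2 and Hbb-bs were lost with no intensity trend (limma adjusted p = 0.193, 0.241 and 0.103). They were also lost with 1 library left out: Ccr2 without RH2hKO replicate 5 or 7 or RH2hWT replicate 3 or 4 (0.0680 to 0.0988), Ear2 without RH2hKO replicate 5 or any 1 RH2hWT replicate (0.0653 to 0.151) and Hbb-bs without RH2hKO replicate 6 or 7 (0.0671 and 0.0944). The summed plasmacytoid list was 41624 in RH2hKO replicate 8, against 41922 to 50468 in the other RH2hKO libraries and 40365 to 46810 in RH2hWT. The summed conventional list was 39759, against 38179 to 39275 and 38840 to 40425. The plasmacytoid sum was mostly Irf8 and Mpeg1, at 13155.2 and 13223.5 in RH2hKO replicate 8. The conventional sum was mostly Cst3, Cd24a and Wdfy4, at 12581.6, 9237.2 and 8245.0 there. Low genes such as Siglech and Zbtb46 weigh little in these sums. Macrophage genes C1qa, C1qb and C1qc were at 5.8, 5.8 and 1.9 in RH2hKO replicate 8 and at 0 to 5.7 elsewhere. Among the remaining lists, limma called 0 of 12 GMP identity genes (5 at an unadjusted p below 0.05, 0 called by edgeR and 2 by DESeq2), 0 of 8 later neutrophil genes (7, 0 and 2 in the same order) and 0 of 2 T and NK genes (1, 0 and 0). Without RH2hKO replicate 8, limma called 1 GMP identity gene, Cd34, higher, and 3 later neutrophil genes lower. These were S100a8 (log2 fold change -2.97, adjusted p = 0.00848), Ngp (-2.73, 0.0133) and S100a9 (-3.30, 0.0356). With RH2hWT replicate 1 also left out, 5 of the 8 later neutrophil genes were lower. The remaining Lcn2, Mmp8 and Cxcr2 had positive log2 fold changes with all libraries (0.59, 0.50 and 0.45). In that fit without both libraries, limma also called Elane, Prtn3, Ctsg, Fcgr3 and Ms4a3 of the 12 GMP identity genes lower and Cd34 higher. With all libraries DESeq2 called Lcn2 and Cd34 higher and Ngp and Elane lower. The part of these cell types in the class II level of that library was not tested. In bulk RNA, fewer cells of a type and less RNA per cell cannot be told apart.

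B cells also carry class II. The summed B lineage list was 5224 in RH2hKO replicate 8, the lowest of all libraries, against 6973 to 8866 in the other RH2hKO libraries and 7771 to 9016 in RH2hWT, and 0 of 7 members were called (limma; 1 at an unadjusted p below 0.05, 0 by edgeR and 0 by DESeq2). That sum was mostly Ighm, at 5945 ± 1642 in RH2hKO and 6773 ± 610 in RH2hWT, and Cd79b, at 1137 ± 103 and 1065 ± 113. Members differed in RH2hKO replicate 8. Cd79a and Ebf1 were at 1.0 each there, against 0.9 to 9.0 in the other RH2hKO libraries and 0 to 7.6 in RH2hWT. Cd72 was at 252.2, the highest of the 8 libraries, and Cd22 at 8.7, the highest of the RH2hKO libraries, where RH2hWT replicate 3 had 17.5. Their part in the class II level was not tested.

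**Figure D5:**
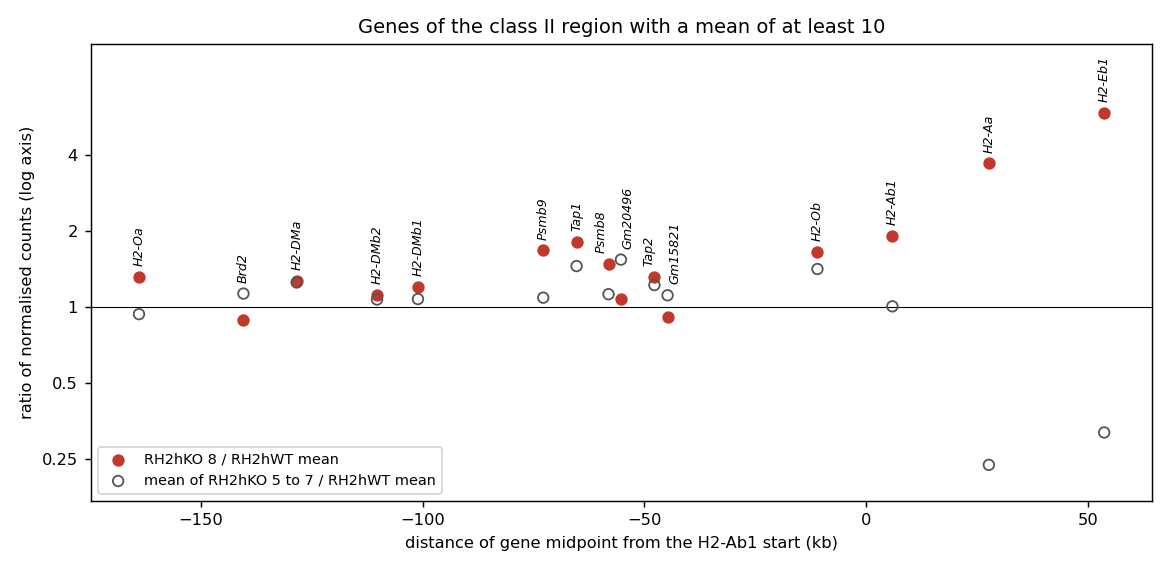
Ratio to the RH2hWT mean (log axis) of RH2hKO 8 (filled) and of the mean of RH2hKO 5 to 7 (open) for genes of the class II region, placed by the distance of the gene midpoint from the H2-Ab1 start. H2-Ab1, H2-Aa and H2-Eb1, at the right end, reach 1.91, 3.70 and 5.85 in RH2hKO 8, while their open points are at 1.00, 0.24 and 0.32.

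Along the class II region the excess of RH2hKO replicate 8 was not the same for all genes. Relative to the RH2hWT mean it stood at 5.85 for H2-Eb1, 3.70 for H2-Aa and 1.91 for H2-Ab1, and at 1.81, 1.67 and 1.48 for Tap1, Psmb9 and Psmb8, the class I processing genes between H2-DMb1 and H2-Ob. It was 1.264 for H2-DMa and 1.198 for H2-DMb1. The mean of RH2hKO replicates 5 to 7 relative to RH2hWT was 0.24 for H2-Aa and 0.32 for H2-Eb1, and 0.93 to 1.54 for the other 13 genes of the region with a mean of at least 10. For Tap1 and H2-DMa that mean was 1.45 and 1.247, so their excess was not particular to RH2hKO replicate 8. For Psmb9 and Psmb8 it was 1.09 and 1.12.

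Genes most like the 8 in their course over the 8 libraries were found by the root mean square difference of their centred log2 values among genes with a mean of at least 50. The nearest to H2-Ab1 were Dipk1b, Vamp5 and Homer2 (0.08, 0.10 and 0.11 on the log2 scale). Dipk1b had 356.5, 432.1, 327.3 and 639.0 normalised counts in RH2hKO replicates 5 to 8, against 297.9 to 403.5 in RH2hWT, so it shared the high RH2hKO replicate 8. Nearest to H2-DMa were Evl, Rnf217 and Fuca1, nearest to H2-DMb1 were Mcat, Mpeg1 and Wdr24, and nearest to Tcf4 were Atrnl1, Ankrd13a and Nop53. None of these 12 genes passed the test (limma adjusted p 0.0636 to 0.825). H2-Aa had a mean below 50, so this rule took no gene for it.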

How the data were processed

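Per the labels' protocols, GMP were sorted from each mouse and their poly(A) RNA was sequenced in paired ends after a directional library kit. GSNAP, featureCounts 2.0.1, DESeq2 1.30.1 and mm10 are named in the submitters' processing notes, with no roles. The deposited values are a signal: each is a gene's count over a factor common to its library, kept to 1 decimal. Within 0.051 normalised counts, 99.997% of the 169267 values above 0 were whole reads, which gave the depth of each library. Of 8 symbols shared by 2 identifiers, the more abundant was kept.

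The test was limma 3.58.1 (R 4.3.3) with an intensity trend on log2(normalised count + 1), for genes with a mean of at least 10, Benjamini-Hochberg adjusted over all 16688, with 0.05 as the threshold. The size of the added constant matters for low genes: the log2 fold change of Cd74 was -2.06 with 0.5 added and -1.11 with 5 added. For Cd74 with all libraries, edgeR and DESeq2 gave smaller changes (-0.34 and -0.36) than limma (-1.79). Without RH2hKO replicate 8, edgeR, DESeq2 and limma gave -2.91, -2.95 and -2.95, so these fits were close once that library was left out. Ciita and Siglech, below the filter, were compared by exact permutation tests (scipy 1.17.1). edgeR 4.0.16 and DESeq2 1.42.0 on the recovered reads, other scalings, filters and pseudocounts, and each library left out were alternatives, and the fits were tested on simulated data. Labels name separate mice, and replicate pairs had a chi-square per degree of freedom of 12.99 to 41.64, where sampling noise alone gives about 1. Named genes are the 8, the 3 nearest genes to each with a mean of at least 50, and from each list up to 5 called genes ranked by adjusted p, or its 2 most abundant where no gene was called. Genes named outside it are the neighbours of the class II region and the defining cell type markers, chosen after their values were seen. A gene withheld from this text is not reported here. The members and lists were chosen with earlier results of these data known. Intervals and floors cover counting error only. Sequences are from RefSeq.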

Additional observations from a re-analysis of the deposited data

Results flagged for a closer look

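In groups of 4, a library was marked when its gap to the nearest other library took more of the group's range than Dixon's 95% critical value. Normally distributed values exceed it by chance in about 1 in 20 groups. The screen used normalised counts without logs, so that share need not hold for low genes with skewed counts, such as H2-Aa, H2-Eb1 and Cd74. A gap on the log2 scale, where low values lie further apart, was not screened. Of 40 groups looked at, 6 were marked, and 5 of them are RH2hKO replicate 8. That library was far above the other RH2hKO libraries for H2-Aa (159.8 normalised counts), H2-Eb1 (66.4) and Cd74 (100.1), and for the summed class II chains (1332.0, against 540.2 to 667.7 in the other RH2hKO libraries and 506.4 to 725.8 in RH2hWT). It was far below them for the summed class II transcription factor and turnover list (14540.0, against 16525.5 to 16827.3 and 16041.6 to 17790.7). RH2hWT replicate 1 was below the other controls for H2-Ab1 (481.3, against 602.3 to 615.9). The sums hold genes that are also marked on their own.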

How the results depend on the processing

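The count of changed genes (234) was 104 with no intensity trend, 554 with DESeq2, 135 to 569 with 1 library left out, 1445 without RH2hWT replicate 1 and RH2hKO replicate 8 together and, both chosen after seeing the data, 554 with edgeR and 1128 with DESeq2 without RH2hKO replicate 8. Of the 8 genes, 0 were called, against 0 or 1 with 1 library left out (H2-DMa, without RH2hWT replicate 2). DESeq2 called 1 (H2-DMa) and gave no p for H2-Aa. Without RH2hWT replicate 1 and RH2hKO replicate 8 together, 1 was called (H2-Aa). Without RH2hKO replicate 8, DESeq2 called 2 (H2-DMa and H2-Aa) and edgeR called 0. The log2 fold change of H2-Aa turned to 0.16 with edgeR and 0.14 with DESeq2, that of H2-Eb1 to 0.79 with edgeR, 0.78 with DESeq2 and 0.40 without RH2hKO replicate 5 (-1.62 to 0.40 with 1 library left out), and that of H2-Ab1 to -0.080 without RH2hWT replicate 1 and RH2hKO replicate 8 together; the cause was not tested. H2-DMa, H2-DMb1 and Tcf4 kept their direction under every alternative run. Of 274 refitted log2 fold changes of these genes, Cd74 and the called list genes, 244 kept direction and side of the threshold, 17 lost a call, 7 gained one and 6 turned, leaving out fits with no adjusted p and no turn. No paired analysis was possible because the groups share no replicate numbers. At this depth Ciita and Siglech give too few reads for a comparison, and H2-Eb1 rests on 80 reads in RH2hKO and 44 in RH2hWT libraries.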
